A study of Mus musculus with 11 samples.

Results

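Genes of macrophages and of the CSF1 receptor pathway were examined in 3 regions of the testis of 7-week-old W/Wv mice, namely the rete testis (RT), the Sertoli valve (SV) and the convoluted seminiferous tubules (ST). The genes are the ligands Csf1 and Il34, their receptor Csf1r, and the macrophage genes Adgre1, Cd68, Cd163, Mrc1, Vsig4, Clec7a and Gpnmb. They were taken by name, through every probe set whose annotation gives that gene alone, which gave 16 probe sets of 45101 on the array and 10 of 18194 genes. W/Wv mice carry mutant alleles of the receptor gene Kit and have few germ cells and few mast cells, and this holds for all 3 regions compared. There were 3 RT, 4 SV and 4 ST arrays (the series' design text speaks of 3 replicates per region), each from a pool of 20 testes cut apart after trypan blue was injected through the efferent ducts. SV pieces adjoin the RT and, by the study's methods, probably carried some RT cells, so an SV value between those of RT and ST cannot be told apart from a mixture of the 2 tissues.

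Macrophages are the main immune cells of the testis. CSF1 and IL-34 are secreted ligands of unrelated sequence that both bind CSF1R, a receptor tyrosine kinase on which most tissue macrophages depend for survival. Testicular macrophages are known in 2 places. Those of the interstitium lie among the Leydig cells and carry much CSF1R and the mannose receptor, while those on the tubule wall carry much MHC class II. Lists of other cell types were read beside the macrophage genes, since all pieces held several tissues and a smaller number of cells and less RNA per cell cannot be told apart in such samples.

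Summed markers of the epithelia followed the labels. The summed MAS5.0 signal (a linear unit of brightness, scaled alike in each array) of 8 rete epithelium markers was 19300 to 30950 in RT, 3501 to 7597 in SV and 734.2 to 1186 in ST. That of 9 Sertoli cell markers was 17730 to 19910 in RT, 23880 to 38790 in SV and 38920 to 48580 in ST. Wt1, Cldn11, Sox9 and Gata4 made up most of the RT sum and differed little from ST. Their mean signals were 6668, 6660, 1628 and 942 in RT, and 6377, 7573, 1963 and 1170 in ST. The lower RT sum came mainly from Amh, Rhox5, Dmrt1, Fshr and Tsx. All 6 mast cell markers and all 3 measured B cell markers lay below the array's median signal in every array of every region, as did 5, 4 and 5 of 6 T cell markers in RT, SV and ST, so those cells left little measurable RNA. Replicates 1 and 2 stood apart from replicates 3 and 4 in all regions, with an 18S rRNA control signal of 20675 to 32135 against 6064 to 12751. Values within these sets are given for some genes and comparisons, not for all. RT has no replicate 4, so within replicates 3 and 4 every RT value rests on RT replicate 3 alone, which is then assumed to vary like the others.

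Macrophage genes were measured in all 3 regions, and single genes differed between the regions in both directions. Regions were compared by limma on log2 signal over all probe sets, and a gene was called at an adjusted p under 0.05 with over 2-fold, on its brightest probe set. Clec7a was called higher in SV than in ST and Vsig4 lower, so that 1 of 10 genes rose and 1 fell, where 2.39% of all 18194 genes rose and 0.0769% fell. In RT against ST 4 rose (Il34, Cd163, Clec7a and Gpnmb) and 1 fell (Vsig4), beside 12.5% and 7.34% of all genes. Between SV and RT limma called 0 of 10 in either direction (4.39% of all genes were higher and 6.41% lower), with 2 at an unadjusted p under 0.05, Il34 and Mrc1, and 0 by the methods' t-test. The median log2 fold change of the 10 genes was 0.49 in SV and 0.64 in RT against ST, and 0.02 and 0.08 over all genes. Both comparisons share the ST arrays, so they are not independent of each other.

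**Figure D1:**
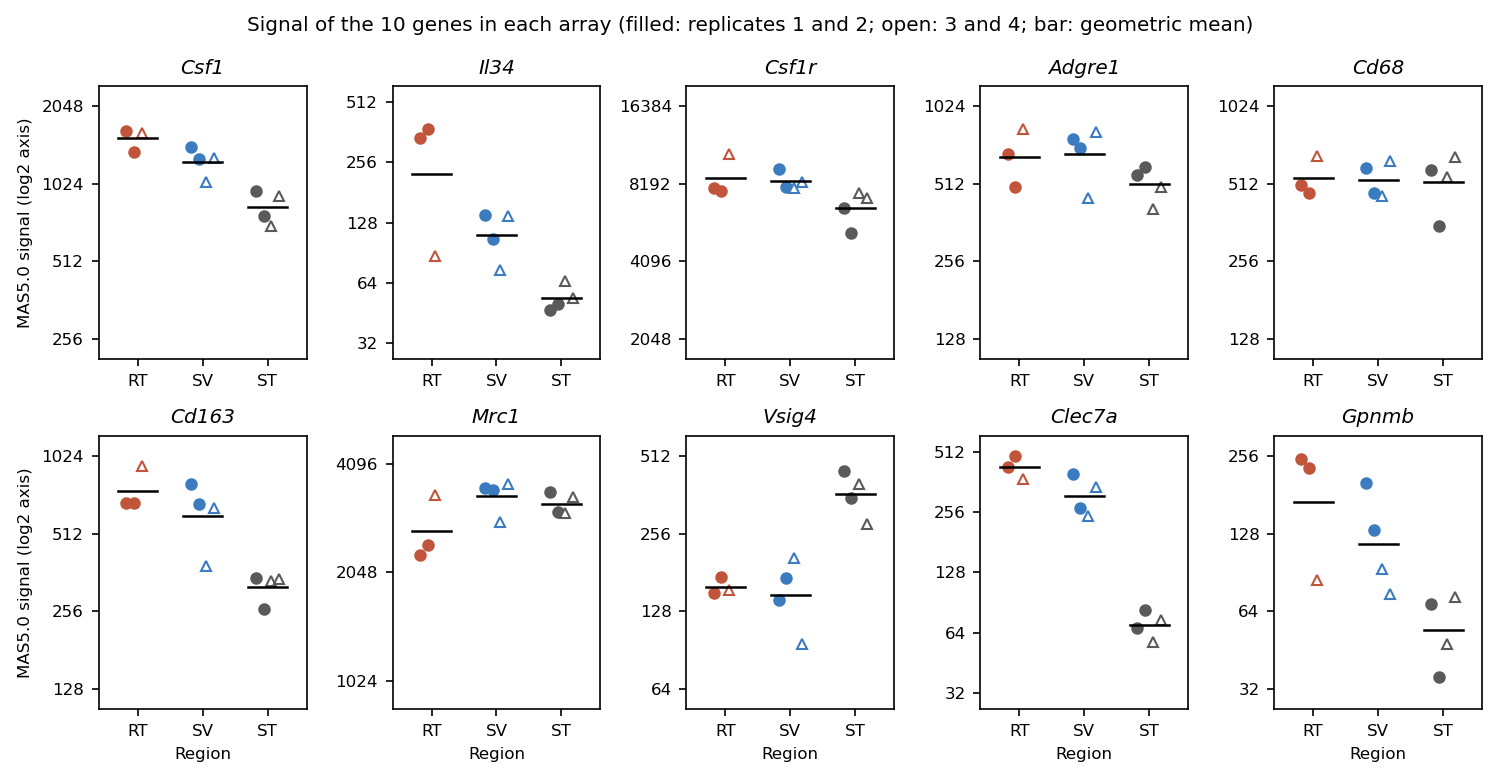
MAS5.0 signal on a log2 axis (y) of the 10 genes, 1 point per array, by region (x), with filled circles for replicates 1 and 2, open triangles for replicates 3 and 4, and a bar at the geometric mean. Clec7a lay at 57.4 to 83.1 in ST and at 245 or more in all SV and RT arrays, Vsig4 lay highest in ST, and Cd68 and Adgre1 overlapped between all regions.

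The ligand Csf1, which is made by many stromal and epithelial cells, had signals of 1649, 1367 and 1613 in RT, of 1423, 1284, 1038 and 1291 in SV, and of 957, 767, 700.3 and 920.4 in ST. All RT and SV arrays lay above all ST arrays. The difference was under 2-fold in both, at 0.89 ± 0.15 (log2 fold change ± standard error, as throughout) in RT (limma adjusted p = 6.88e-04) and 0.59 ± 0.14 in SV (adjusted p = 0.0458), so Csf1 was not called. Of the 3 other Csf1 probe sets, one had 0.78 (adjusted p = 0.00834) in RT and 0.43 in SV, and the others had 0.21 and 0.28, and -0.29 and -0.24. The order RT, SV, ST of Csf1 thus rests on its 2 brightest probe sets, and RT and SV did not differ beyond their spread (-0.30 ± 0.15 for SV against RT, adjusted p = 0.240).

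Il34 encodes the ligand known from epithelia such as the epidermis and from neurons. Its differences from ST were larger than those of Csf1 and Csf1r, and its RT arrays were uneven. Its signal was 338, 376 and 87.0 in RT replicates 1 to 3, 139, 106, 74.4 and 139 in SV, and 46.8, 50.5, 65.7 and 54.1 in ST. All RT and SV arrays lay above all ST arrays, RT replicate 3 lay among the SV arrays, and in ST the probe set was below the array's median signal in 4 of 4 arrays. Il34 was 4.14-fold higher in RT than in ST (log2 2.05 ± 0.45, adjusted p = 0.00403). This size rests on dim ST signals and was 1.61 on the log2(signal + 32) scale. In SV the value was 1.04 ± 0.42 (adjusted p = 0.278, 95% interval 0.15 to 1.94), which did not pass. Without RT replicate 3 the RT value was 2.73, and SV was then called lower than RT (-1.68), a difference that did not pass with all arrays (-1.01 ± 0.45, adjusted p = 0.173). The call in RT was lost within replicates 3 and 4 (0.55, from the low RT array alone) and with the methods' t-test after adjustment, while within replicates 1 and 2 SV was called higher than ST (1.32). The study lists Il34 and Gpnmb as examples among probes it found specific to SV with these arrays, so their direction there is not independent evidence.

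RT replicate 3 also differed from the other RT arrays in other tissue markers. Its summed rete epithelium signal was 19300, against 30950 and 27650, and its summed pan-macrophage signal (22 genes) was 32880, against 27950 and 28750. Foxj1, a gene of ciliated cells such as those of the efferent ducts, read after the values were seen, had a signal of 2264, 2399 and 732 in RT replicates 1 to 3, while the duct chloride channel gene Cftr had 1441, 1255 and 1432. The part of these tissues in the Il34 and Gpnmb values was not tested.

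The receptor gene Csf1r was bright in all regions and was not called between any of them by limma. Its brightest probe set read 7906, 7662 and 10730 in RT, 9398, 7978, 7916 and 8312 in SV, and 6629, 5265, 7570 and 7195 in ST. Every RT and SV array lay above every ST array, but by little. The log2 fold change was 0.39 ± 0.16 in RT (adjusted p = 0.0937, 95% interval 0.05 to 0.73) and 0.34 ± 0.15 in SV (adjusted p = 0.325, interval 0.03 to 0.66), so that both intervals exclude 0 and also a rise of 2-fold. In RT it passed the adjusted p, still below 2-fold, after quantile normalization and with the replicate number or the set as a block. The other Csf1r probe sets had 0.37 and 0.27 in RT and 0.39 and 0.23 in SV. On the brightest one the SV value was 0.55 within replicates 1 and 2 and 0.14 within replicates 3 and 4. After median centring of each array the RT value was -0.03, so the direction in RT depends on the scaling.

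Of the general macrophage genes and the mannose receptor gene, none passed limma's adjusted p in any comparison of the main fit. Adgre1, which encodes the surface protein F4/80, had 666, 499 and 834 in RT, 764, 703, 452 and 815 in SV, and 554, 597, 409.7 and 498 in ST, with overlap between all regions (0.36 ± 0.23 in RT, 95% interval -0.14 to 0.85, and 0.39 ± 0.21 in SV, interval -0.07 to 0.84). Cd68, which encodes a lysosomal glycoprotein of phagocytes, was nearly level: its mean signal ± SD was 545 ± 100.1 over 3 RT arrays, 537 ± 84.7 over 4 SV arrays and 532 ± 129 over 4 ST arrays. Its intervals against ST were -0.41 to 0.52 in RT and -0.39 to 0.47 in SV. Within replicates 1 and 2 Adgre1 in RT had 0.004 against ST, and within replicates 3 and 4 it had 0.88, from 1 RT array. Mrc1, the mannose receptor gene, had 2291, 2448 and 3374 in RT, 3518, 3475, 2832 and 3606 in SV, and 3425, 3009, 2989 and 3322 in ST. Mrc1 in RT was -0.26 ± 0.15 against ST (adjusted p = 0.250), and SV was 0.33 ± 0.15 above RT (adjusted p = 0.178).

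**Figure D2:**
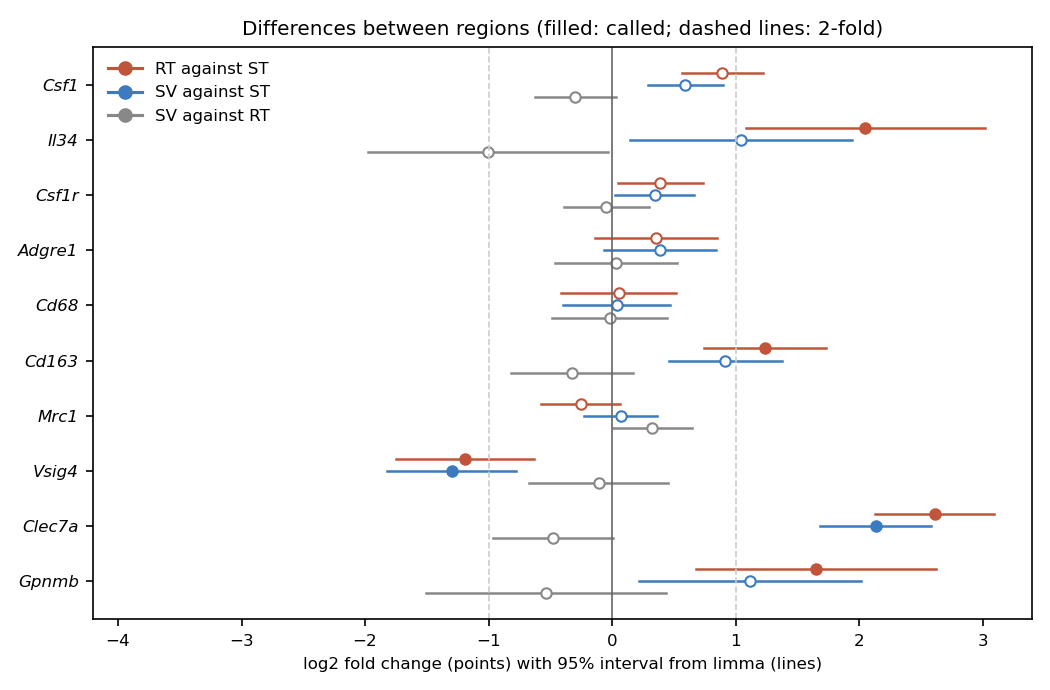
Log2 fold change of each gene (x) with its 95% interval from limma for RT against ST, SV against ST and SV against RT, filled where called and with dashed lines at 2-fold. The intervals of Clec7a and Vsig4 lie on opposite sides of 0 in both comparisons with ST, and those of Cd68 span 0 in all 3.

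Clec7a gave the largest difference from ST among the 10 genes. It encodes Dectin-1, a C-type lectin receptor of myeloid cells that binds fungal beta-glucan and signals through the kinase SYK. The signal was 428, 489.8 and 373 in RT, 396, 268, 245 and 341 in SV, and 67.4, 83.1, 57.4 and 74.4 in ST. The lowest SV array was well above the highest ST array, and RT and SV overlapped. Clec7a was 6.11-fold higher in RT (2.61 ± 0.22, adjusted p = 4.03e-06) and 4.39-fold higher in SV (2.13 ± 0.21, adjusted p = 9.87e-05). SV against RT was -0.48 ± 0.22 (adjusted p = 0.195, 95% interval -0.96 to 0.00). In ST the probe set was below the array's median signal in 2 of 4 arrays, and on the log2(signal + 32) scale the differences were 2.17 and 1.73. Within replicates 3 and 4 the SV value was 2.14, without a call.

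Vsig4 moved the other way. It encodes CRIg, a complement receptor of the immunoglobulin family found on resident macrophages. The signal was 151, 173 and 155 in RT, 141, 173, 206 and 95.3 in SV, and 447, 353, 400.1 and 278 in ST. Every ST array lay above every RT and SV array, and RT and SV overlapped. Vsig4 was lower than in ST by log2 -1.19 ± 0.26 in RT (adjusted p = 0.00398) and -1.30 ± 0.24 in SV (adjusted p = 0.0122), and SV and RT did not differ beyond their spread (-0.11 ± 0.26, adjusted p = 0.849). Within replicates 3 and 4 the values were -1.11 in RT (1 array) and -1.25 in SV, neither with a call. The SV call was also lost with the methods' t-test after adjustment.

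Cd163, which encodes the scavenger receptor for haemoglobin bound to haptoglobin, followed Clec7a with a smaller size. Its signal was 675, 673 and 939 in RT, 796, 668, 384 and 643 in SV, and 346, 262, 334 and 342 in ST, and all RT and SV arrays lay above all ST arrays. The value was 1.24 ± 0.23 in RT (adjusted p = 0.00125) and 0.92 ± 0.21 in SV (adjusted p = 0.0407), the latter under 2-fold and not called. Without SV replicate 3, the lowest SV array, SV was called as well (1.13). In RT the call was lost with each array centred on its median (0.82), and within replicates 3 and 4 the RT value was 1.47 from 1 array, without a call.

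Gpnmb encodes a membrane glycoprotein of lysosome-rich macrophages that is also made by other cells such as melanocytes and osteoblasts. The signal was 251, 229.5 and 84.6 in RT, 202, 133, 93.1 and 74.8 in SV, and 68.5, 35.5, 47.7 and 72.8 in ST. All RT and SV arrays lay above all ST arrays, the lowest SV array by little. As for Il34, RT replicate 3 was far below the other RT arrays. Gpnmb was 3.14-fold higher in RT (1.65 ± 0.45, adjusted p = 0.0150), with 1.12 ± 0.42 in SV (adjusted p = 0.235, 95% interval 0.22 to 2.01). Within replicates 1 and 2 SV was called higher than ST (1.73), while within replicates 3 and 4 the SV value was 0.50, without a call. The RT call was lost without RT replicate 1 (1.37) or RT replicate 2 (1.43), with the methods' t-test after adjustment, and with quantile normalization (1.29) or median centring (1.23). Its second probe set was below the array's median in all 11 arrays and gave no usable value.

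The promoters of the 2 genes that moved in opposite directions in both comparisons are printed here, since both carry the core of the site of PU.1, the factor encoded by Spi1 that directs macrophage genes. The windows run from 250 bases before to 50 bases after the start of the RefSeq transcript (GRCm38.p6), 5′ to 3′ on the gene's strand, with the motif GAGGAA in capitals. The Clec7a window lies on the minus strand at chr6:129472730-129473029, and that of Vsig4 on the minus strand at chrX:96293389-96293688.
Clec7a: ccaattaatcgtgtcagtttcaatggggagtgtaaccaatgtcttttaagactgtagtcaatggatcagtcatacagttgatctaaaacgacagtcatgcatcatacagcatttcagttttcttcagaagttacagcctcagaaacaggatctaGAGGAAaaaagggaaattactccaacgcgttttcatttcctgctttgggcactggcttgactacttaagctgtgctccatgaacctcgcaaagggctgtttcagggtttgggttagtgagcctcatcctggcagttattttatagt
Vsig4: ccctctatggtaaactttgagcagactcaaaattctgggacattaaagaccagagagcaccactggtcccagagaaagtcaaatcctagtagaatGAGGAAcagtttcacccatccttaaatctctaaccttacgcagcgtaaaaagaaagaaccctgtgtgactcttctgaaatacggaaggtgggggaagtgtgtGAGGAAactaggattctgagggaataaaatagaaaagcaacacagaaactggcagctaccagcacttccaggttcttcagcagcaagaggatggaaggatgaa
The motif was searched on both strands. It begins 96 bases before the start in Clec7a, and 155 and 53 bases before it in Vsig4. Of the 7 genes with a window in the table (Csf1, Cd68, Cd163, Mrc1, Vsig4, Clec7a and Gpnmb), 4 had it, Cd68 and Mrc1 being the others, and 28.3% of all 32851 windows had it. So it occurred in genes that rose, fell and did not pass a test, and its letters say nothing about binding.

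Since Csf1r, Adgre1, Cd68 and Mrc1 differed little between regions, the other 6 genes were also read against the mean log2 signal of these 4 within each array, a choice made after the values were seen, which does not depend on how arrays are scaled. On this scale Clec7a lay at -2.50 to -1.56 in RT, -2.70 to -2.31 in SV and -4.71 to -4.02 in ST. Vsig4 lay at -3.77 to -3.06, -4.38 to -2.83 and -2.58 to -1.88. Cd163 lay at -1.22 to -1.11 in RT, -1.94 to -1.30 in SV and -2.37 to -2.17 in ST. Csf1 lay at -0.39 to 0.07 in RT, -0.62 to -0.44 in SV and -1.10 to -0.78 in ST. In these 4 genes the ST arrays did not overlap with those of RT or SV. The share of all genes that separate likewise on this scale is not given here, so this is a description only. With arrays centred in this way Clec7a had 2.47 in RT and 1.92 in SV, Vsig4 -1.33 and -1.51, and Cd163 1.10 and 0.71, and every call named above for these 3 genes was also made here. Cd163 in SV, not called in either fit, passed limma's adjusted p in the main fit (0.0407) but not here (0.0771). Csf1 had 0.75 in RT and 0.38 in SV, and only the RT value passed the adjusted p (0.00548, against 0.318 in SV), below 2-fold. Il34 (1.91) and Gpnmb (1.52) in RT were called as well, although RT replicate 3 lay at -4.60 for Il34 and -4.64 for Gpnmb, within the range of the ST arrays.

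**Figure D3:**
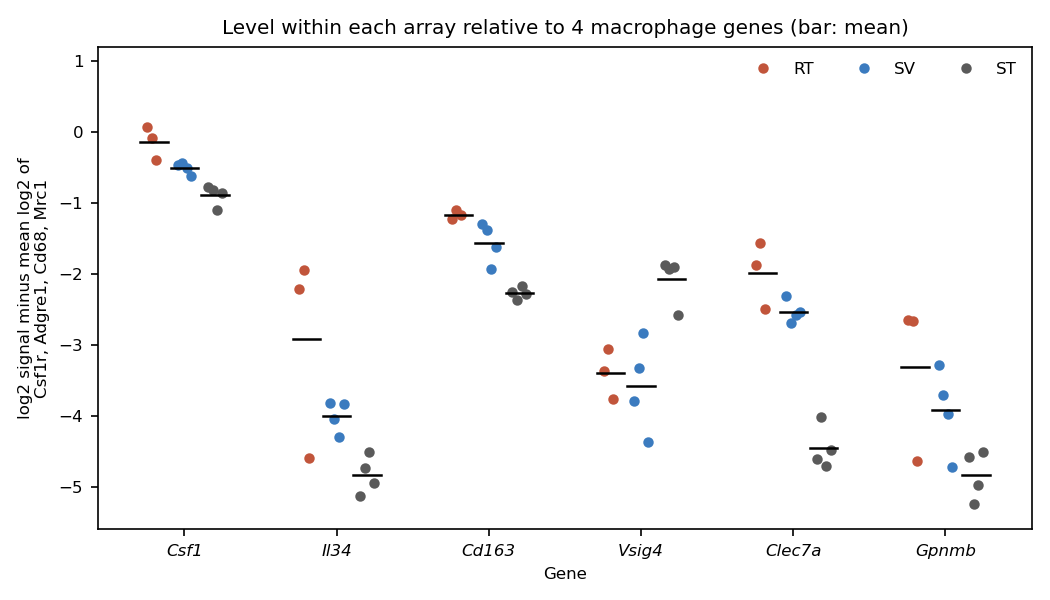
Log2 signal of 6 genes minus the mean log2 signal of Csf1r, Adgre1, Cd68 and Mrc1 in the same array (y), for each RT, SV and ST array, with a bar at the mean. Clec7a and Cd163 lay lowest and Vsig4 highest in ST, and for Il34 and Gpnmb a single RT array (replicate 3) lay near the ST arrays.

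Other genes of the macrophage were read from lists. Of 22 further pan-macrophage genes, 0 were called in SV against ST by limma, 9 had an unadjusted p under 0.05, and the methods' t-test called 0. Cd14 and Ctss passed the adjusted p there below 2-fold, and 1 gene was called when SV replicate 2 or 3 or ST replicate 4 was left out. In RT 15 had an unadjusted p under 0.05, and 10 passed the adjusted p, 7 of them higher and 3 lower. Shares of all genes without the fold limit are not given here, so for no list can such counts be set against them. Past 2-fold 1 rose and 1 fell in RT, beside 12.5% and 7.34% of all genes. Those below 2-fold there were Aif1 (0.81), Ptprc (0.81), Tyrobp (0.67), Cd14 (0.64), Cybb (0.63) and Ctss (0.61), all higher, and Mertk (-0.95) and Fcer1g (-0.60), both lower. The list's median log2 fold change was 0.39 in SV and 0.49 in RT, and their summed signal was 27950 to 32880 in RT, 25620 to 34640 in SV and 24480 to 29760 in ST. The gene that rose in RT was Sirpa (2.24, adjusted p = 2.11e-05), for the receptor of CD47, which is made by neurons and other cells too. The gene that fell was Mpeg1, for the pore protein perforin-2 (-1.56, adjusted p = 4.32e-06), with 1366, 1622 and 1782 in RT, 3157, 3634, 3978 and 3406 in SV, and 5468, 4410, 4431 and 4435 in ST. Mpeg1 in SV was higher than in RT (1.16, adjusted p = 2.48e-04). Of 9 Sertoli cell markers 5 also fell in RT, and the part of that tissue in the values of Mertk, Fcer1g and Mpeg1 was not tested. The complement genes C1qa, C1qb and C1qc, which resident macrophages make, had 0.18, 0.27 and 0.16 in RT.

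Of 13 further genes of resident macrophages, 0 were called in SV by limma (3 at an unadjusted p under 0.05, 0 by the methods' t-test) and 1 rose in RT, with medians of 0.01 and 0.02. The gene that rose was Lyve1 (1.48, adjusted p = 0.0126), which lymphatic vessels share, and quantile normalization or median centring ended this call. Without the fold limit 3 passed limma's adjusted p as higher in RT, Lyve1, Stab1 (0.92) and Pf4 (0.54). As lower 2 passed, Cbr2 (-0.53) and Slc40a1 (-0.53). Folr2 (-0.44), F13a1 (0.02), Clec10a (1.24) and Timd4 (-0.38), which was dim in RT, did not pass there. Beside Lyve1 itself, 2 of the 4 other measured lymphatic markers rose in RT, Pdpn (2.02) and Mmrn1 (1.78). Pdpn, which other cells also make, held most of the list's signal. Without it the sum was 316 to 523 in RT, 167 to 362 in SV and 119 to 199 in ST.

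MHC class II genes, which present antigen to T cells, rose in the same regions as Clec7a. Of 6 measured, 3 were called higher in SV (1 without ST replicate 1 or ST replicate 2) and 5 in RT, with a median of 1.08 and 1.74. The summed signal was 11330 to 15980 in RT, 5624 to 11140 in SV and 3047 to 4267 in ST, with no overlap between SV and ST. H2-Aa was higher by 1.92 in RT (adjusted p = 1.46e-05) and 1.17 in SV (adjusted p = 0.00376). Cd74, for the invariant chain, had 2.56 (adjusted p = 7.94e-05) and 1.27 (adjusted p = 0.0482), and was the gene of the list called lower in SV than in RT (-1.29, adjusted p = 0.0191), a call lost with median centring or without RT replicate 1, RT replicate 2 or SV replicate 3. H2-Eb1 was 4.01-fold higher in RT and 2.43-fold higher in SV, while H2-Ab1 and H2-DMa were called in RT (1.56 and 1.29) and had 1.00 and 0.78 in SV. Ciita, the activator gene of MHC class II, was below the array's median in all arrays.

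Monocyte and dendritic cell genes gave no common direction. Of 8 measured, 0 were called in SV by limma (2 at an unadjusted p under 0.05, 1 by the methods' t-test). In RT 2 rose, Siglech (1.04) and the less specific Plac8 (1.03), and 1 fell, the integrin gene Itgax (-1.23, adjusted p = 0.00459). Itgax was dim in RT, at 46.2, 51.2 and 52.9, where the arrays' medians were 102.8, 99.6 and 110.4. Zbtb46 passed limma's adjusted p as higher in RT just below 2-fold (0.9995, adjusted p = 0.0376), with 0.97 in SV (adjusted p = 0.136). With median centring 0 rose in RT. Of 6 T cell, 3 B cell, 5 neutrophil, 6 mast cell and 5 Leydig cell markers, limma called 0 in SV and 0 in RT. At an unadjusted p under 0.05 there were 1 T cell and 2 Leydig cell markers in SV, and 1 B cell and 1 neutrophil marker in RT, and the methods' t-test called 1 T cell marker in SV and 1 neutrophil marker in RT. The summed Leydig signal was 33580 to 43250 in RT, 28090 to 68170 in SV and 21870 to 47710 in ST, and so overlapped between all regions. Of 8 endothelial markers 3 rose in RT (Kdr, Vwf and Emcn) and 1 in SV (Kdr), while Pecam1 (-0.33) and Tek (-0.24) in RT did not pass. Without Kdr (3.85 in RT and 2.10 in SV) the summed signal was 1783 to 3807 in RT, 1195 to 3446 in SV and 872 to 1505 in ST. Of 6 fibroblast markers 1 rose in RT, Col1a1 (1.66, limma adjusted p = 1.77e-05), and 5 passed the adjusted p there as higher. Of 5 peritubular myoid markers 2 fell in RT, Acta2 (-1.65) and Cnn1 (-2.54). Limma called 0 of either list in SV. Rete markers and the single vessel markers named above were higher in the same regions as Clec7a, Cd163 and MHC class II genes. Their part in those results, and that of fibroblast and myoid tissue, was not tested.

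**Figure D4:**
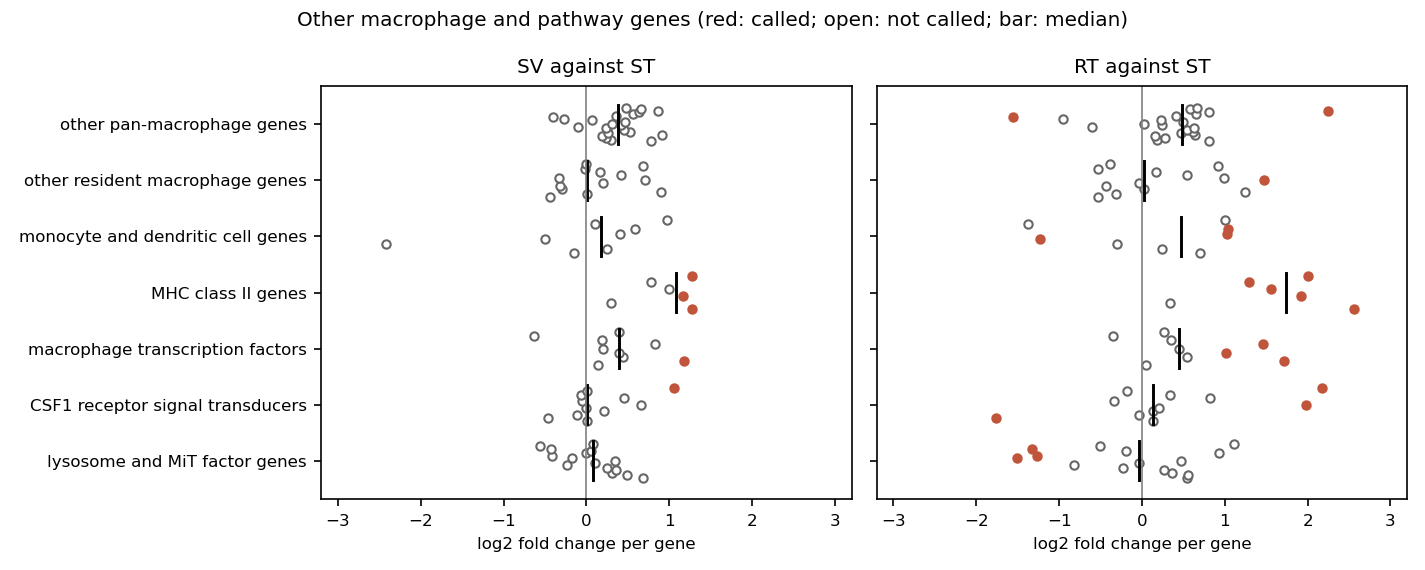
Log2 fold change (x) of each gene of 7 macrophage and pathway lists in SV against ST and RT against ST, red where called, with a bar at the list's median. The medians of pan-macrophage genes were 0.39 and 0.49 and those of MHC class II genes 1.08 and 1.74.

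Other receptors of IL-34 are the phosphatase PTPRZ1 and the proteoglycan syndecan-1. Ptprz1 was highest in SV, with a signal of 106, 85.4 and 101.3 in RT, 194, 245, 188 and 259 in SV, and 65.4, 72.0, 98.6 and 70.7 in ST, and all SV arrays lay above all others. It was higher than in ST by 1.54 (adjusted p = 0.00254) and than in RT by 1.17 (adjusted p = 0.00634), with 0.36 (adjusted p = 0.336) between RT and ST. Sdc1, which encodes syndecan-1, had 0.96 in RT (adjusted p = 0.0218) and 0.83 in SV (adjusted p = 0.136), both under 2-fold. Its call in RT was made without RT replicate 2, ST replicate 2 or ST replicate 4, and that in SV without SV replicate 3.

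Of 11 measured transducers of the CSF1 receptor, 1 rose in SV, and 2 rose and 1 fell in RT, with medians of 0.01 and 0.13. Syk, for the kinase that also acts below Dectin-1, rose in both (RT 2.17, adjusted p = 5.31e-05, and SV 1.06, adjusted p = 0.0418). Its signal was 543, 477 and 832 in RT, 306, 199, 246 and 387 in SV, and 103, 124, 156 and 157 in ST, all SV arrays lying above all ST arrays. The SV call was lost with quantile normalization, with median centring and without any 1 of 8 arrays. Pik3r1, a PI3-kinase subunit gene, rose in RT (1.98, adjusted p = 1.51e-04) and Fyn, for a SRC family kinase, fell (-1.76, adjusted p = 1.57e-05). Of 7 measured genes of the Dectin-1 pathway, 1 was called in SV and in RT, again Syk.

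Among 9 measured macrophage transcription factors, 1 rose in SV and 3 in RT. Cebpb rose in both (RT 1.72, adjusted p = 2.13e-05, and SV 1.18, adjusted p = 0.00234), and Runx1 (1.46) and Maf (1.02) in RT. Spi1, the PU.1 gene, had 0.35 in RT and 0.19 in SV, and Irf8 had 0.55 and 0.44, none of which passed limma's adjusted p. The count in RT was 1 with median centring and 1 without RT replicate 1, RT replicate 2, ST replicate 1, ST replicate 3 or ST replicate 4. Of 15 lysosome genes and their MiT factors (MiT factors are known regulators of Gpnmb), 0 were called in SV by limma (5 at an unadjusted p under 0.05, 0 by the methods' t-test) and 3 fell in RT. These were Lgmn (-1.51), Tfe3 (-1.32) and Lipa (-1.26), for a cysteine protease, a MiT transcription factor and an acid lipase. The other MiT factors went both ways in RT without a call. By limma Mitf had 0.94 (adjusted p = 3.80e-04), Tfec 1.11 (adjusted p = 0.0800) and Tfeb -0.51 (adjusted p = 0.0251). Of 7 other myeloid growth factor and receptor genes 1 fell in RT, the IL-3 receptor gene Il3ra (-1.13), a call lost without RT replicate 2.

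For the 6 genes with a limma F-test adjusted p under 0.05 over the regions, the genes with the most similar profile were taken by the root mean square difference of centred log2 signals over the 11 arrays, as a description. Nearest to Clec7a were Ppm1h (0.26), Clic5, Rhbdl3, Hepacam and Sel1l3, and none of these is in the macrophage lists. Nearest to Vsig4 were Nr4a3 (0.26), Mpzl1, Dnajc12, Rgcc and Emp1, and to Cd163 Nod1 (0.15), Nat8f5, Dlc1, Hipk2 and Dock10. Nearest to Il34 were Cda (0.33), Dmkn, Fam149a, Cd24a and Sectm1a, and to Csf1 Anxa5 (0.10), Nudt6, Plpp5, Ptprd and Oaz2. For Gpnmb they were Rbfox3 (0.32), Fhit, Esr1, the MHC class II gene H2-Ab1 (0.38) and Pter.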

How the data were processed

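RNA of RT, SV and ST pieces was hybridized to Affymetrix Mouse Genome 430 2.0 arrays, 1 per pool. The authors summarized probe intensities to MAS5.0 signals and deposited them as linear intensity values. Trimmed of 2% at either end, the signals of each array average 500. The table holds no detection calls, so dimness was judged against each array's median signal (65.8 to 110.4). Log2 signals of all 11 arrays were fitted by limma 3.58.1 with a mean-variance trend (R 4.3.3), with Benjamini-Hochberg adjustment over 45101 probe sets and no filter. A gene was counted by its probe set with the highest mean log2 signal. Gene names came from the platform annotation, in which 34958 probe sets carry 1 symbol, 932 several and 9211 none, and all 16 used here matched the RefSeq table by Entrez ID. Of 193 entries in 23 other lists 175 were measured. Members and lists were chosen with earlier results of these data known, so no set test was made. Named genes are all 10 members, up to 4 called genes per list and comparison with the largest change, genes that decide a count of 5 or fewer, and the 5 genes nearest in profile. Other list genes, Foxj1 and Cftr were named after their values were seen. The fit was tested on simulated data. The labels do not say whether pools of different regions came from the same animals. Python 3.11.15 with matplotlib 3.10.9 made the figures.

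Each result was also computed with the methods' t-test (unadjusted, then adjusted), with limma on just the regions compared or with no trend, after quantile normalization or centring arrays on their medians, with 32 added to or set as the lowest signal, on the brighter probe sets, with replicate number or set (1 and 2, or 3 and 4) as a block, within either set, on the next probe set, without the fold limit, and without any single array. Centring on 4 macrophage genes was added after seeing the data.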

Additional observations from a re-analysis of the deposited data

Results flagged for a closer look

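Among 20 sets of 4 arrays (10 genes in SV and in ST), 2 held an array far from the others by Dixon's test, where chance gives about 1 in 20. The Cd163 signal in ST replicate 2 was 262, below 334 to 346 in the other ST arrays. The Mrc1 signal in SV replicate 3 was 2832, below 3475 to 3606 in the other SV arrays.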

How the results depend on the processing

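Over 759 values of the 10 genes under alternatives, 696 kept direction and side of the threshold, 38 reversed, 11 gained and 14 lost a call. The causes of these changes were not tested. Some alternatives keep the fold change by construction, such as leaving out an array of the region not compared. Most comparisons had no call to lose, and a changed adjusted p was counted only where it changed a call. The number kept is thus no measure of stability. Of the 10 genes, those higher in SV than in ST numbered 3 with the methods' t-test unadjusted, 4 in replicates 1 and 2 alone, 0 in replicates 3 and 4 alone, 3 with no fold threshold and 1 to 2 with an array left out (2 without SV replicate 3). Those lower in SV numbered 0 with the adjusted methods' t-test and 0 in replicates 3 and 4 alone. In RT against ST 2 were higher with the adjusted methods' t-test, 2 with median centring and 1 in replicates 3 and 4 alone (a single RT array), where 0 were lower. In SV against RT 1 (Il34) was lower in replicates 1 and 2 alone, and 0 to 1 with an array left out (1 without RT replicate 3).

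Values that reversed belong to genes with no call in that comparison, except Gpnmb in RT. With median centring Cd68 (-0.071) and Mrc1 (-0.036) reversed in SV against ST, Csf1r (-0.031), Adgre1 (-0.067) and Cd68 (-0.37) in RT against ST, and Csf1 (0.017), Csf1r (0.27), Cd68 (0.30) and Vsig4 (0.21) in SV against RT. With quantile normalization Cd68 in RT against ST (-0.090) and Cd68 (0.10) and Vsig4 (0.16) in SV against RT did so. In replicates 3 and 4 alone these were Cd68 in SV against ST (-0.15), Mrc1 in RT against ST (0.10), and Il34 (0.22), Adgre1 (-0.46) and Mrc1 (-0.078) in SV against RT. In replicates 1 and 2 alone they were Csf1r (0.15), Cd68 (0.11) and Cd163 (0.11) in SV against RT. The second probe set gave Gpnmb -0.83 in SV and -0.54 in RT against ST, and Csf1r 0.013 in SV against RT. With an array left out Cd68 ranged from -0.15 to 0.15 in SV and -0.13 to 0.16 in RT against ST, and in SV against RT Csf1r from -0.14 to 0.11, Adgre1 from -0.16 to 0.22, Cd68 from -0.12 to 0.13 and Vsig4 from -0.27 to 0.10.

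Arrays of the same replicate number had residuals correlated at 0.0692 to 0.19 over 10 pairs, and arrays of another number in the same set (1 and 2, or 3 and 4) at 0.0698 to 0.178, while arrays of another number in the other set lay at -0.179 to -0.0761. In 15 of 20 cases an array was best correlated with the array of its own number in another region, a hint of pairing from the data. The same-number range overlapped that of other numbers within a set, so these correlations cannot decide whether the numbers are pairs. The numbers were not taken as pairs, and the main fit had no term for number or set. With the replicate number as a block 1 gene was again higher and 1 lower in SV against ST, with 4 and 1 in RT against ST and 0 and 0 in SV against RT, and no call among the 10 genes changed, while Adgre1 (-0.010) and Vsig4 (0.062) in SV against RT changed sign. Over all probe sets the block moved the counts in SV against ST from 675 higher and 30 lower to 995 and 104, and those lower in SV against RT from 2251 to 3593.

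Scaling moved the direction of calls over all probe sets. In RT against ST 65.1% of calls were higher (4607 against 2473, median log2 0.13), 49.6% with quantile normalization (3482 against 3535, median -0.07) and 34.9% with median centring (2812 against 5254, median -0.29). In SV against RT these shares were 37.2%, 52.6% and 66.8%. The number of arrays limits the precision, and so does the dim signal of Il34, Clec7a and Gpnmb in ST.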
